A study of Mus musculus with 69 samples.

Results

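Cholesterol synthesis was followed through 8 genes in 69 RNA-sequencing libraries of mouse kidney. The genes were taken by symbol and make up 8 of the 24411 genes counted. All 8 were among the 21175 genes that were tested because their counts summed to 2 or more, and the lowest count of any of them in any library was 115, for Idi1. Cholesterol is built from acetyl-CoA in the endoplasmic reticulum and cytosol. Srebf2 encodes SREBP2, the transcription factor that turns on the genes of this pathway, which is made as a precursor held in the membrane of the endoplasmic reticulum. When sterols in that membrane are scarce, the escort protein SCAP carries SREBP2 to the Golgi, where proteases release its active part. When sterols are abundant, the protein encoded by Insig1 holds SCAP and SREBP2 back. Insig1 is itself a target of SREBP2. The remaining 6 genes encode enzymes, here in the order of the pathway. Hmgcs1 makes HMG-CoA, Idi1 isomerizes isopentenyl diphosphate, Fdft1 joins farnesyl diphosphate into squalene, Sqle adds oxygen to squalene, Lss closes the ring to lanosterol and Cyp51 removes a methyl group from lanosterol. Kidney epithelial cells both make cholesterol and take it up from lipoproteins.

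RNA was tagged in mice that carry 1 floxed copy of Uprt, a uracil phosphoribosyltransferase of Toxoplasma gondii, at Rosa26, where Cre removes a stop cassette. The genotypes are Hoxb7Cre;UPRTf/+ and Atp6b1v1Cre;UPRTf/+, the labels' spelling for a driver of the gene Atp6v1b1, and every mouse, controls included, was injected with 4-thiouracil at 430 mg/kg, and the kidney was taken 4 hours later, so that RNA made in cells with Uprt could be biotinylated and pulled down. Hoxb7Cre marks many cell types of the collecting duct and Atp6v1b1Cre an overlapping subset, so the pulldowns are mixtures of cell types and the 2 domains are not separate. Mice were controls, had both renal pedicles clamped for 10 minutes and were labelled 24 hours later (iAKI, ischemia), or had water and food withheld for 72 hours (vAKI, volume depletion). Volume depletion in this model is therefore also a fast. The pulldown libraries comprise 10 control, 7 iAKI and 7 vAKI libraries of Hoxb7Cre and 11 control, 6 iAKI and 7 vAKI libraries of Atp6v1b1Cre, and 21 further libraries hold total kidney RNA of controls of both genotypes. Mice were 5.5 months old except for 2 female Hoxb7Cre controls, 3 male Atp6v1b1Cre controls and 5 of the total RNA libraries, which were of 3 months. Injury was compared in the 22 male pulldown libraries of 5.5 months, with 4 control, 4 iAKI and 3 vAKI libraries in Hoxb7Cre and 4, 3 and 4 in Atp6v1b1Cre. The females and the controls of both sexes are described separately.

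The sequence before each gene is shown because these genes, textbook targets of 1 factor, did not change together. RefSeq's table on GRCm38.p6 held the start of 6 of the 8 genes (not Sqle and Fdft1). The 250 bases before RefSeq's start of the 4 genes that changed after vAKI in Hoxb7Cre pulldowns follow, 5′ to 3′ on the gene's strand. Capitals mark TCACNCCA, letters of a sterol regulatory element, CACGTG, an E-box, and CCAAT, the box read by NF-Y, each searched on both strands, so that CCAAT on the other strand reads ATTGG.
Srebf2, chr15:82147019-82147268, plus strand: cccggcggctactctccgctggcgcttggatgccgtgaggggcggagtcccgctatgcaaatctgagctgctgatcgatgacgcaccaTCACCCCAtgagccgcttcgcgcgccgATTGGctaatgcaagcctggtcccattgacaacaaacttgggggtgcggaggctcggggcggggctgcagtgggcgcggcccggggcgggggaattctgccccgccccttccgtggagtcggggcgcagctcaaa
Insig1, chr5:28071162-28071411, plus strand: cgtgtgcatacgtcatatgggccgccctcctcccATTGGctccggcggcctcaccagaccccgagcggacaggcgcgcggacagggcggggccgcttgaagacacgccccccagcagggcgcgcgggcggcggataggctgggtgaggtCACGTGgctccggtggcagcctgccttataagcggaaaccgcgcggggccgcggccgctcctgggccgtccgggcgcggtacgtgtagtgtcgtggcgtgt
Lss, chr10:76531355-76531604, plus strand: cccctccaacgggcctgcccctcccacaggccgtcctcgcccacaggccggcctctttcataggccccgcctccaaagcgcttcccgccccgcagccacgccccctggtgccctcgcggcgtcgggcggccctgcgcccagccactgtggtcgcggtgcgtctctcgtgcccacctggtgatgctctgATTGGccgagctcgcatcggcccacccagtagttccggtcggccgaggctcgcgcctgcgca
Hmgcs1, chr13:119690101-119690350, plus strand: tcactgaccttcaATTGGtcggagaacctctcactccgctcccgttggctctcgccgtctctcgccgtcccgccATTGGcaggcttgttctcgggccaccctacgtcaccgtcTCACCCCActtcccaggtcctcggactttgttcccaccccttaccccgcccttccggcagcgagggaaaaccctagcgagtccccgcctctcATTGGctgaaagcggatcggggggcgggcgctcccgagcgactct
TCACNCCA lay 162 bases before the start of Srebf2 and 137 bases before that of Hmgcs1, and was found in 3.67% of the 32851 promoter windows of this length. CACGTG was found before the start of Insig1, and 6.02% of the windows held it. CCAAT was found in all 6 windows, Idi1 and Cyp51 included, and in 33.9% of all windows. These matches are letters only, and binding was not measured. Srebf2 and Hmgcs1, which share the sterol element letters, moved in opposite directions after vAKI in Hoxb7Cre males. In Hoxb7Cre females neither was called, at log2 fold changes of -0.19 and -0.40. The part of these letters in the changes was not tested.

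The spans of the genes were taken from GENCODE's annotation on GRCm38 and run from the outermost start of any transcript, and the RefSeq windows shown for Srebf2, Insig1 and Lss reach past it. The gene Srebf2 spans chr15:82147181-82205379 and Sqle lies on the same chromosome at chr15:59315077-59331192. Hmgcs1 (chr13:119690379-119708260) and Idi1 (chr13:8885501-8892451) share chromosome 13. Insig1 (chr5:28071363-28078662) and Cyp51 (chr5:4081145-4104746, minus strand) share chromosome 5. Fdft1 lies at chr14:63145150-63179578 on the minus strand and Lss at chr10:76531588-76557138. All 8 are protein coding, and counts cover the exons of each gene.

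Libraries held 12618062 to 30305464 counts, with a median of 20868430. Levels of single genes are given as CPM, read counts scaled to TMM-normalized library sizes. Sums of markers are CPM of each library's total counts, without TMM scaling. The markers of principal cells, summed over 5 genes, reached 2791 to 3707 CPM in the male Hoxb7Cre control pulldowns and 445 to 661 CPM in male total RNA, and the 5 intercalated cell markers reached 759 to 1018 CPM in the male Atp6v1b1Cre control pulldowns and 232 to 281 CPM in male total RNA. Proximal tubule markers remained in the pulldowns, at 1849 to 3192 CPM in the male Hoxb7Cre controls beside 8684 to 11260 CPM in male total RNA. Markers of the adrenal cortex, a tissue that makes steroids from cholesterol, summed to over 100 CPM in 11 libraries, 10 of them female and 1 a male Hoxb7Cre control at 116 CPM. The highest sums, 659 and 1338 CPM, were in 2 of the 3 female iAKI Atp6v1b1Cre libraries. Of the 4 female vAKI Hoxb7Cre libraries, libraries 1 to 3 stood within the range of the female controls on 2182 genes. Males changed these genes after vAKI in Hoxb7Cre by at least 1 on the log2 scale. On a scale of mean log2 change in the males' direction, libraries 1 to 3 lay at 0.15, 0.75 and 0.31. The remaining female library lay at 1.49, beside 0.08 to 0.91 in the female controls and 1.48 to 1.59 in the vAKI males. The genes and their direction were chosen in these same males, so the males' values were high by construction. The female control at 0.08 has library number 21. Those of 5.5 months with numbers 74 to 100 lay at 0.63 to 0.91, and those of 3 months, 81 and 82, at 0.43 and 0.18. The vAKI females have numbers 8 to 16 and all lay above control number 21.

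In the control mice, pulldown RNA differed from total kidney RNA for most of the 8 genes, and in both directions. Srebf2, Insig1 and Fdft1 were higher in both pulldowns than in total RNA, and Cyp51 and Idi1 were lower. Of the 8 genes, 7 were called between Hoxb7Cre pulldown and total RNA and 5 between Atp6v1b1Cre pulldown and total RNA, by edgeR's quasi-likelihood test with a Benjamini-Hochberg adjusted p under 0.05 and sex as a covariate. Calls at this threshold covered 66.6% and 63.8% of all genes tested, so a high count is also the background here, and all genes tested had a median log2 fold change of 0.11 in both comparisons. As these are bulk libraries, fewer cells of a type and less RNA per cell cannot be told apart.

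Cyp51, the lanosterol demethylase, showed the widest gap. Its level was lowest, median and highest at 237, 377 and 645 CPM in the 21 total RNA libraries, at 67, 111 and 141 CPM in the 10 Hoxb7Cre control pulldowns and at 68.4, 112 and 156 CPM in the 11 Atp6v1b1Cre ones. Every total RNA library was above every control pulldown. The log2 fold change against total RNA was -1.88 (SE 0.15, adjusted p = 3.23e-15) in Hoxb7Cre and -1.79 (SE 0.14, adjusted p = 3.03e-15) in Atp6v1b1Cre, where groups that do not overlap and are lower made up 15.5% and 14.8% of all genes. Srebf2 went the other way, at 92.8, 111 and 119.7 CPM in total RNA, 120.3, 149.7 and 189.6 CPM in Hoxb7Cre and 135, 142 and 152 CPM in Atp6v1b1Cre. Its log2 fold change was 0.52 (SE 0.05, adjusted p = 8.91e-14) and 0.43 (SE 0.05, adjusted p = 1.25e-11), again with no overlap of either pulldown with total RNA (higher without overlap, 10.4% and 9.22% of all genes).

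Insig1, the retention protein, was higher by 0.52 (SE 0.12, adjusted p = 1.43e-04) in Hoxb7Cre and 0.60 (SE 0.11, adjusted p = 7.98e-06) in Atp6v1b1Cre pulldowns on the log2 scale, with groups that overlapped. In males alone Insig1 (0.11), Fdft1 (0.28) and Lss (0.14) were not called in Hoxb7Cre. Fdft1, squalene synthase, was higher by a log2 fold change of 0.28 (SE 0.08) and 0.33 (SE 0.08). Idi1, the isomerase, was lower, at log2 fold changes of -0.61 (SE 0.22) and -0.82 (SE 0.21), and in females alone its log2 fold changes were 0.27 and 0.26, neither called. Sqle, squalene epoxidase, was lower in Hoxb7Cre alone among the calls, at a log2 fold change of -0.77 (SE 0.12, adjusted p = 1.72e-07), against -0.21 (SE 0.11, adjusted p = 0.0965) in Atp6v1b1Cre. The direct comparison of the pulldowns called Sqle and no other member, higher in Atp6v1b1Cre by a log2 fold change of 0.56 (SE 0.13, adjusted p = 0.00229), where 9.93% of all genes were called. The 2 pulldown comparisons share the total RNA libraries. Lss was called in Hoxb7Cre (log2 fold change 0.23, SE 0.06, adjusted p = 0.00115) and had 0.11 (SE 0.06, adjusted p = 0.12) in Atp6v1b1Cre. Hmgcs1 was called in neither, at a log2 fold change of -0.10 (SE 0.11, adjusted p = 0.45) and 0.07 (SE 0.10, adjusted p = 0.547).

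The other enzymes of the pathway were more often lower than higher in the pulldowns. Of 15 enzymes that are not members, 9 were lower and 5 higher in Hoxb7Cre, and 10 were lower and 5 higher in Atp6v1b1Cre, beside lower calls in 31.1% and 29.4% of all genes. Ebp, the sterol isomerase, had the largest change in Hoxb7Cre, at a log2 fold change of -2.66 (SE 0.07, adjusted p = 4.41e-33), followed by Mvk, mevalonate kinase, at -1.96 (SE 0.11, adjusted p = 4.42e-20) and Mvd, mevalonate diphosphate decarboxylase, at -1.81 (SE 0.11, adjusted p = 5.44e-20).

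Between the sexes, controls differed most in Idi1, and the difference lay in total RNA. Male total RNA had 16.9, 31.3 and 42.7 CPM as lowest, median and highest of 11 libraries, and female total RNA had 6.44, 9.60 and 10.7 CPM of 10. All male libraries were above all female ones, where 29.4% of all genes were called between the sexes. The share of all genes without overlap is not given here. In the pulldowns the sexes overlapped, at 7.80, 10.7 and 10.97 CPM in 4 males and 9.08, 10.4 and 12.3 CPM in 6 females of Hoxb7Cre, and at 8, 10.5 and 12.6 CPM in 7 males and 7.03, 10.5 and 13.95 CPM in 4 females of Atp6v1b1Cre. A fit of the 42 controls with 6 groups of RNA and sex, added after the data were seen, gave a male to female log2 fold change of 1.82 (SE 0.13, adjusted p = 1.04e-14) in total RNA, -0.05 (SE 0.19, adjusted p = 0.922) in Hoxb7Cre and -0.04 (SE 0.19, adjusted p = 0.994) in Atp6v1b1Cre. The male to female log2 difference in the pulldown minus that in total RNA was -1.86 (SE 0.24, adjusted p = 1.21e-06) for Hoxb7Cre and -1.86 (SE 0.22, adjusted p = 7.59e-07) for Atp6v1b1Cre. Idi1 was the 1 member for which these differences were called, beside 5.28% and 1.76% of all genes. Proximal tubule markers summed to 8684 to 11260 CPM in male and 6200 to 10640 CPM in female total RNA of 5.5 months, and their part in the difference was not tested.

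Over all 42 controls, with the RNA as a term, 5 members differed between the sexes, beside 30.3% of all genes. This fit takes the 42 libraries as independent, though 1 mouse may have given a pulldown and a total RNA library. Its SEs may therefore be too small. The male to female log2 fold change was 0.90 (SE 0.17, adjusted p = 6.94e-05) for Idi1, 0.58 (SE 0.09) for Sqle, 0.44 (SE 0.09) for Hmgcs1, 0.32 (SE 0.10) for Insig1 and -0.37 (SE 0.07) for Fdft1. It was -0.06 (SE 0.04) for Srebf2, -0.08 (SE 0.05) for Lss and -0.21 (SE 0.11) for Cyp51, none called. In total RNA alone 4 members beside Idi1 differed between the sexes, where 29.4% of all genes were called. Hmgcs1 (log2 fold change 0.70, SE 0.11), Sqle (0.66, SE 0.13) and Insig1 (0.45, SE 0.12) were higher in males and Fdft1 (-0.40, SE 0.09) was higher in females. Within the Hoxb7Cre pulldowns 0 members were called (2 at an unadjusted p under 0.05, as 26.1% of all genes were, and 10.3% of all genes called), and within Atp6v1b1Cre pulldowns Sqle was called, higher in males by a log2 fold change of 0.67 (SE 0.19, adjusted p = 0.0251), where 4.08% of all genes were called. That call was lost without libraries of over 100 CPM of adrenal cortex markers. Of the 15 further enzymes, 4 were higher and 2 lower in male total RNA. Mvd was higher, at a log2 fold change of 0.86 (SE 0.09, adjusted p = 1.47e-10), as was Sc5d, a sterol desaturase, at 0.53 (SE 0.09, adjusted p = 5.22e-06).

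**Figure D1:**
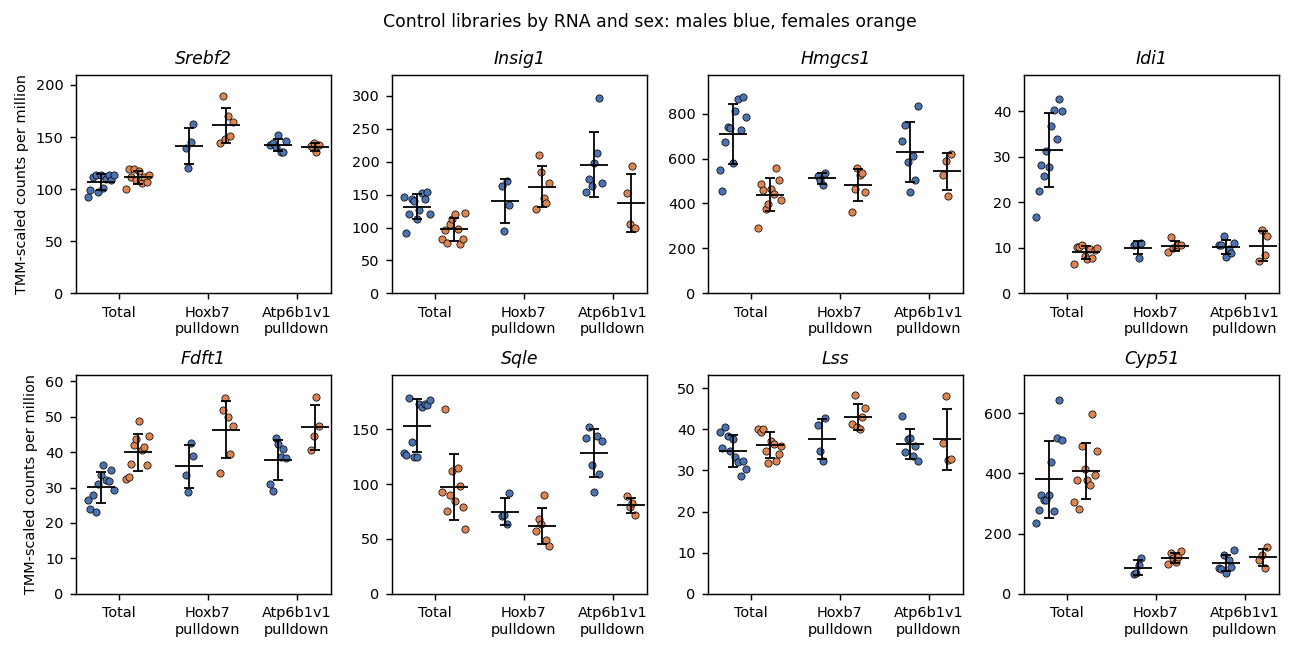
Levels of the 8 genes in the 42 control libraries, in TMM-scaled CPM, 1 point per library, by RNA and sex, with bars at the mean ± SD. Idi1 in male total RNA, from 16.9 to 42.7 CPM, lies above all other controls, and Cyp51 is higher in total RNA than in every pulldown.

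After volume depletion in Hoxb7Cre males, Insig1, Lss and Srebf2 rose and Hmgcs1 fell. These were 4 of the 8 members, beside 35.5% of all genes called, 17.9% higher and 17.6% lower, so the count itself is near the background of this strong response. The median log2 fold change of the 8 members was 0.33, beside 0.00 for all genes tested. Values were tested with edgeR's quasi-likelihood test in 1 fit of the 22 males.

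Insig1 had the largest change. The 4 control libraries held 163, 95.2, 169.9 and 134 CPM and the 3 vAKI libraries held 399.8, 294 and 341 CPM. The lowest vAKI library was above the highest control, and the log2 fold change was 1.30 (SE 0.27, adjusted p = 7.19e-04). Lss, the ring-closing enzyme, held 41.0, 34.6, 32.4 and 42.7 CPM in controls and 80.9, 68.6 and 78.7 CPM after vAKI. Its groups did not overlap either, and its log2 fold change was 1.02 (SE 0.13, adjusted p = 4.44e-06). Insig1 and Lss were the 2 members that also passed a log2 fold change of 1, as 16.4% of all genes did. Srebf2 held 139.7, 120.3, 145 and 162 CPM in controls and 182, 182 and 189.9 CPM after vAKI. The rise of Srebf2 was smaller, at a log2 fold change of 0.38 (SE 0.12, adjusted p = 0.0144), with no overlap, and was not called without control library 3 (0.31) or vAKI library 7 (0.36). Higher values without overlap were found for 19.7% of all genes and lower ones for 19.8%.

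Hmgcs1, the enzyme that makes HMG-CoA, was the member that fell. Its controls held 521, 506, 482 and 536 CPM and its vAKI libraries 302, 347 and 352 CPM, with every vAKI library under every control and a log2 fold change of -0.61 (SE 0.15, adjusted p = 0.00275). Sqle (log2 fold change 0.38, SE 0.18, adjusted p = 0.108), Idi1 (0.29, SE 0.19, adjusted p = 0.252), Fdft1 (-0.21, SE 0.18, adjusted p = 0.382) and Cyp51 (-0.23, SE 0.21, adjusted p = 0.427) did not pass the test. Principal cell markers summed to 2791 to 3707 CPM in these controls and 1060 to 1151 CPM after vAKI, and thick ascending limb markers to 1971 to 3074 CPM and 869 to 1017 CPM. Their part in these changes was not tested. Without the control library that held adrenal cortex markers, 4 members were again called.

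**Figure D2:**
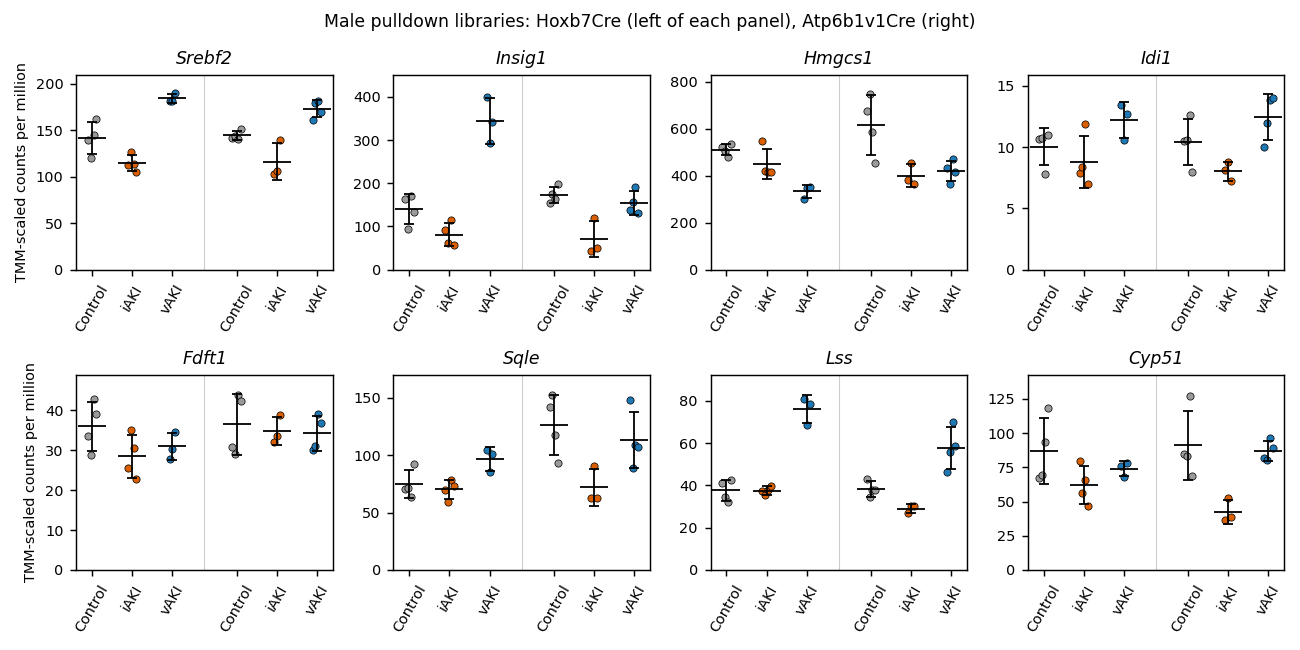
Levels of the 8 genes in the 22 male pulldown libraries of 5.5 months, in TMM-scaled CPM, 1 point per library, by driver and treatment, with bars at the mean ± SD. Insig1 reaches 294 to 400 CPM in the 3 vAKI libraries of Hoxb7Cre, above the other 19 libraries plotted.

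In Atp6v1b1Cre males, vAKI called 2 members, Lss higher and Hmgcs1 lower, beside 14.6% of all genes. Lss held 43.2, 34.4, 37.8 and 37.8 CPM in controls and 46.4, 55.8, 70.1 and 58.5 CPM after vAKI, without overlap, and rose by 0.60 (SE 0.12, adjusted p = 0.00252) on the log2 scale. Hmgcs1 held 678, 748, 586 and 453 CPM in controls and 435, 366, 469.7 and 415 CPM after vAKI. These groups overlapped, and the log2 fold change of -0.53 (SE 0.14, adjusted p = 0.0127) was not called without control library 9 (-0.43). Srebf2 held 142, 144, 140.4 and 152 CPM in controls and 162, 180, 182 and 169.9 CPM after vAKI, without overlap, and did not pass the test (log2 fold change 0.28, SE 0.11, adjusted p = 0.0991), where 7.05% of all genes were higher without overlap. Insig1 held 154, 174, 164 and 199 CPM in controls and 139, 157, 191 and 130.1 CPM after vAKI, which overlap (log2 fold change -0.15, SE 0.26, adjusted p = 0.766). The remaining 4 members had log2 fold changes of 0.27 (SE 0.17) for Idi1, -0.08 (SE 0.16) for Fdft1, -0.14 (SE 0.17) for Sqle and -0.05 (SE 0.19) for Cyp51, none called. DESeq2 called 3 members, Srebf2 included. Intercalated cell markers summed to 759 to 1018 CPM in these controls and 450 to 605 CPM after vAKI, and 3 of the 5 fell, among them Foxi1 at a log2 fold change of -1.01 (SE 0.30, adjusted p = 0.025). Thick ascending limb markers summed to 1376 to 2660 CPM and 1142 to 1349 CPM, proximal tubule markers to 1900 to 3448 CPM and 1044 to 4075 CPM, and adipocyte markers to 131 to 266 CPM and 89.8 to 108.3 CPM. Their part in the changes was not tested.

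The difference between the drivers was tested itself. For Insig1 the log2 fold change after vAKI in Atp6v1b1Cre minus that in Hoxb7Cre was -1.45 (SE 0.38, adjusted p = 0.0276), and Insig1 was the 1 member called in males, beside 4.20% of all genes. With both sexes in the fit the difference of Insig1 was -0.36 and not called, and in females alone it was 0.76, of the other sign and not called. The call was lost when any of 5 libraries was left out, namely vAKI Hoxb7Cre 4 or 7, control Hoxb7Cre 3, or control Atp6v1b1Cre 9 or 11, with values from -1.46 to -1.30 for Insig1. For Lss the difference of log2 fold changes was -0.41 (SE 0.18, adjusted p = 0.215), for Srebf2 -0.11 (SE 0.16, adjusted p = 0.817) and for Hmgcs1 0.08 (SE 0.20, adjusted p = 0.935), none of which passed the test. The differences of Idi1, -0.02 (SE 0.26), Fdft1, 0.13 (SE 0.24), Sqle, -0.52 (SE 0.25), and Cyp51, 0.18 (SE 0.28), were not called either.

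Genes around the pathway were taken as lists. Of 8 sterol uptake and transport genes, 5 rose and 0 fell in Hoxb7Cre, and 3 rose and 0 fell in Atp6v1b1Cre, where 17.9% and 8.11% of all genes rose. The median log2 fold change of these 8 genes in Hoxb7Cre was 0.86, beside 0.00 for all genes. Lpin1, a phosphatidate phosphatase, rose by a log2 fold change of 1.26 (SE 0.20, adjusted p = 3.50e-05) in Hoxb7Cre and 1.26 (SE 0.19, adjusted p = 1.72e-04) in Atp6v1b1Cre. Tmem97, a sterol-regulated membrane protein, rose by a log2 fold change of 0.90 (SE 0.22, adjusted p = 0.00247) in Hoxb7Cre, and Mylip, a ubiquitin ligase, rose by 1.92 (SE 0.23, adjusted p = 2.33e-05) in Atp6v1b1Cre. With Lpin1 and Mylip the list is wider than uptake and transport, so its counts are not counts of uptake genes alone.

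Of 5 genes of SREBP processing and its partner SREBP1, 4 fell after vAKI in Hoxb7Cre and 0 rose, with a median of -0.55, where 17.6% of all genes fell. Insig2, the relative of Insig1, had a log2 fold change of -1.16 (SE 0.15, adjusted p = 4.80e-06), the protease gene Mbtps2 of -0.80 (SE 0.15, adjusted p = 3.02e-04) and Scap of -0.55 (SE 0.17, adjusted p = 0.0136). Insig1 and Insig2 therefore moved in opposite directions in Hoxb7Cre. In Atp6v1b1Cre, Insig2, at a log2 fold change of -0.64 (SE 0.14, adjusted p = 0.0034), and Mbtps2, at -0.49 (SE 0.14, adjusted p = 0.0202), fell and 0 of the 5 rose.

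The other 15 enzymes of the pathway did not move as 1 group after vAKI. In Hoxb7Cre 6 rose, 3 fell and 6 did not pass the test, with a median of 0.04. Of all genes, 17.9% rose and 17.6% fell there. Hsd17b7, a sterol ketoreductase, rose by a log2 fold change of 1.13 (SE 0.15, adjusted p = 5.87e-06) and Pmvk, phosphomevalonate kinase, by 1.03 (SE 0.24, adjusted p = 0.00207), while Ebp fell, at -0.77 (SE 0.15, adjusted p = 4.92e-04). In Atp6v1b1Cre 4 rose and 1 fell, where 8.11% of all genes rose and 6.47% fell. Acat2, which joins acetyl-CoA units at the first step, rose there by a log2 fold change of 1.19 (SE 0.20, adjusted p = 6.18e-04), while Hmgcs1, the next enzyme, fell.

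Of 8 genes of cholesterol efflux and its sensors, 4 rose and 1 fell in Hoxb7Cre, and 3 rose and 0 fell in Atp6v1b1Cre, beside the 17.9% and 8.11% of all genes that rose. Ch25h, which makes 25-hydroxycholesterol, an oxysterol that holds SREBP2 back, rose by a log2 fold change of 3.13 (SE 0.44, adjusted p = 1.16e-05) and 2.22 (SE 0.38, adjusted p = 7.53e-04). Apoe, the apolipoprotein, rose by a log2 fold change of 1.83 (SE 0.18, adjusted p = 2.60e-07) and 1.03 (SE 0.17, adjusted p = 5.13e-04). Of 5 macrophage markers 3 rose in Hoxb7Cre, Cd68 (log2 fold change 2.06, SE 0.27, adjusted p = 5.63e-06), C1qb (1.11, SE 0.28, adjusted p = 0.00292) and C1qa (0.69, SE 0.27, adjusted p = 0.0497), and 2 fell. Their sum was 51.9 to 56.3 CPM in controls and 44.7 to 55.9 CPM after vAKI. In Atp6v1b1Cre 0 of these markers rose and 1 fell, and the sum was 122 to 142.5 CPM and then 69.8 to 113 CPM. The part of these cells in the efflux list was not tested. Of 10 genes of fatty acid synthesis, 6 fell and 1 rose in Hoxb7Cre, and 3 fell and 1 rose in Atp6v1b1Cre, beside 17.6% and 6.47% of all genes that fell. In Hoxb7Cre the log2 fold change was -1.46 (SE 0.39, adjusted p = 0.00499) for Scd1, a fatty acid desaturase, and -1.24 (SE 0.26, adjusted p = 5.77e-04) for Acaca, acetyl-CoA carboxylase, while Acly, which supplies acetyl-CoA in the cytosol, rose, at 1.03 (SE 0.19, adjusted p = 2.20e-04). In Atp6v1b1Cre Acss2, which makes acetyl-CoA from acetate, fell, at a log2 fold change of -1.27 (SE 0.20, adjusted p = 3.69e-04). Of 8 adipocyte markers 5 fell in Hoxb7Cre, with Ucp1 at a log2 fold change of -2.73 (SE 0.65, adjusted p = 0.00222), Cidea at -1.83 (SE 0.51, adjusted p = 0.00695) and Plin1 at -1.46 (SE 0.34, adjusted p = 0.00176), and 2 fell in Atp6v1b1Cre, Ucp1 at -2.47 (SE 0.59, adjusted p = 0.00718) and Plin1 at -1.72 (SE 0.31, adjusted p = 0.00109). In Hoxb7Cre their sum was 135 to 276 CPM in controls and 112 to 157 CPM after vAKI, and the part of these cells in the fatty acid list was not tested.

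After ischemia in Atp6v1b1Cre males, 4 of the 8 members fell and 0 rose. Cyp51, Insig1, Sqle and Hmgcs1 were lower, beside 8.51% of all genes called and 4.74% called lower. The median log2 fold change of the 8 members was -0.52, beside 0.00 for all genes tested.

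Cyp51 held 84.8, 83.4, 127 and 68.4 CPM in the 4 controls and 36.2, 52.5 and 38.95 CPM in the 3 iAKI libraries. The groups did not overlap, and the log2 fold change was -1.10 (SE 0.22, adjusted p = 0.0036). Insig1 held 154, 174, 164 and 199 CPM in controls and 43.7, 119 and 49.4 CPM after iAKI, also without overlap, at a log2 fold change of -1.31 (SE 0.29, adjusted p = 0.00791). Sqle held 142, 152, 118 and 93.2 CPM in controls and 63.2, 90.4 and 62.4 CPM after iAKI, without overlap, at a log2 fold change of -0.82 (SE 0.18, adjusted p = 0.00922). Hmgcs1 held 678, 748, 586 and 453 CPM and 379.9, 455 and 363 CPM. Its groups overlapped, at a log2 fold change of -0.63 (SE 0.15, adjusted p = 0.0121).

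Srebf2 (142, 144, 140.4 and 152 CPM in controls, 103.4, 106.5 and 139 CPM after iAKI) and Lss (43.2, 34.4, 37.8 and 37.8 CPM, then 26.8, 30.2 and 30.2 CPM) lay lower after iAKI without overlap and did not pass edgeR's test, at a log2 fold change of -0.32 (SE 0.12, adjusted p = 0.0986) and -0.41 (SE 0.14, adjusted p = 0.0624). DESeq2 called 6 members, these 2 included (adjusted p = 0.0272 and 0.0245). Lower values without overlap were found for 9.54% of all genes. Idi1 (log2 fold change -0.38, SE 0.19) and Fdft1 (-0.08, SE 0.17) were not called. Without iAKI library 1 the count was 1, Cyp51, as Hmgcs1 (-0.58), Sqle (-0.72) and Insig1 (-1.03) lost their calls. Proximal tubule markers summed to 1900 to 3448 CPM in the controls and 931 to 1220 CPM after iAKI, thick ascending limb markers to 1376 to 2660 CPM and 2720 to 4517 CPM, and adipocyte markers to 131 to 266 CPM and 217 to 439 CPM. Their part in the changes was not tested.

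In Hoxb7Cre males iAKI called 0 members by edgeR's quasi-likelihood test, with 3 at an unadjusted p under 0.05 (20.6% of all genes) and 2 called by DESeq2, Srebf2 and Insig1, beside 6.13% of all genes called. Of the 8 log2 fold changes 7 were under 0, with a median of -0.24 beside 0.00 for all genes. Insig1 held 163, 95.2, 169.9 and 134 CPM in controls and 91.3, 61.7, 115 and 57.5 CPM after iAKI, which overlap, at a log2 fold change of -0.77 (SE 0.26, adjusted p = 0.0766). Without iAKI library 6 Insig1 was called, at -0.98 (adjusted p = 0.0416). Srebf2 held 139.7, 120.3, 145 and 162 CPM and 113, 127, 114 and 105.2 CPM, which overlap, at a log2 fold change of -0.29 (SE 0.11, adjusted p = 0.123). Cyp51 was at a log2 fold change of -0.48 (SE 0.19, adjusted p = 0.151), Fdft1 at -0.33 (SE 0.16, adjusted p = 0.258), Idi1 at -0.18 (SE 0.18, adjusted p = 0.593), Hmgcs1 at -0.17 (SE 0.14, adjusted p = 0.541), Sqle at -0.07 (SE 0.17, adjusted p = 0.879) and Lss at 0.01 (SE 0.12, adjusted p = 1). The difference between the drivers in the iAKI response called 0 members (4 at an unadjusted p under 0.05, as 23.4% of all genes were, and 1 by DESeq2, Sqle), beside 7.79% of all genes. It was largest for Sqle, a difference of log2 fold changes of -0.75 (SE 0.25, adjusted p = 0.0661). Sqle was called when iAKI Atp6v1b1Cre library 4, control Hoxb7Cre library 5 or control Atp6v1b1Cre library 11 was left out (-0.91, -0.87 and -0.86). The calls in Atp6v1b1Cre are thus not shown to be particular to that driver.

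Around the pathway, 0 of the 15 other enzymes were called in Atp6v1b1Cre after iAKI and 3 fell in Hoxb7Cre, with log2 fold changes of -0.77 (SE 0.23, adjusted p = 0.0491) for Pmvk, -0.52 (SE 0.14, adjusted p = 0.0268) for Fdps and -0.50 (SE 0.15, adjusted p = 0.0483) for Dhcr7, where 2.79% of all genes fell. Of the 8 sterol uptake and transport genes 3 fell in Atp6v1b1Cre, among them Lpin1 at a log2 fold change of -1.25 (SE 0.20, adjusted p = 0.00108) and, at -0.70 (SE 0.15, adjusted p = 0.00786), Stard4, a sterol carrier, and 0 were called in Hoxb7Cre. Of the 5 genes of SREBP processing 0 were called in either pulldown. Of the 10 fatty acid synthesis genes 3 fell in each pulldown and 0 rose, beside 2.79% of all genes in Hoxb7Cre and 4.74% in Atp6v1b1Cre. The log2 fold change of Fasn, fatty acid synthase, was -1.33 (SE 0.23, adjusted p = 0.00197) in Hoxb7Cre and -1.54 (SE 0.25, adjusted p = 0.00108) in Atp6v1b1Cre, and that of Scd1 was -2.48 (SE 0.37, adjusted p = 6.62e-04) and -1.41 (SE 0.39, adjusted p = 0.0259). Adipocyte markers fell with them in Hoxb7Cre, 6 of 8, with Ucp1 at a log2 fold change of -4.28 (SE 0.65, adjusted p = 7.75e-04), Cidea at -2.96 (SE 0.50, adjusted p = 0.00175), Plin1 at -1.80 (SE 0.31, adjusted p = 0.00215) and Adipoq at -1.27 (SE 0.38, adjusted p = 0.0459), and their sum was 135 to 276 CPM in controls and 55.1 to 114 CPM after iAKI. In Atp6v1b1Cre 1 of the 8 rose, Fabp4, and 0 fell. The part of these cells in the fatty acid list was not tested. Of the 8 efflux genes Ch25h, at a log2 fold change of 1.84 (SE 0.44, adjusted p = 0.015), and Apoe, at 1.00 (SE 0.17, adjusted p = 0.00196), rose in Hoxb7Cre and 0 were called in Atp6v1b1Cre.

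The 2 injuries were also compared with each other. In Hoxb7Cre males Insig1 was higher after vAKI than after iAKI by a log2 fold change of 2.08 (SE 0.28, adjusted p = 7.46e-06), Lss by 1.01 (SE 0.13, adjusted p = 6.06e-06) and Srebf2 by 0.68 (SE 0.12, adjusted p = 1.43e-04), and Hmgcs1 was lower, at -0.44 (SE 0.15, adjusted p = 0.0257), with 33.3% of all genes called. Sqle (log2 fold change 0.46, SE 0.18, adjusted p = 0.0563), Idi1 (0.47, SE 0.19, adjusted p = 0.0562), Fdft1 (0.11, SE 0.18, adjusted p = 0.673) and Cyp51 (0.25, SE 0.21, adjusted p = 0.399) did not pass edgeR's test, and DESeq2 called Sqle and Idi1. In Atp6v1b1Cre males 6 members were higher after vAKI and 0 lower, beside 29.3% of all genes called and 15.0% called higher. These were Srebf2 (log2 fold change 0.60, SE 0.12), Insig1 (1.16, SE 0.29), Idi1 (0.66, SE 0.19), Sqle (0.68, SE 0.18), Lss (1.01, SE 0.14) and Cyp51 (1.06, SE 0.21). Hmgcs1 was at a log2 fold change of 0.10 (SE 0.15, adjusted p = 0.657) and Fdft1 at 0.00 (SE 0.18, adjusted p = 1). The call of Hmgcs1 in Hoxb7Cre was lost without iAKI library 4 or vAKI library 4 or 6 (-0.33, -0.36 and -0.47), that of Sqle in Atp6v1b1Cre without iAKI library 1 (0.57) and that of Idi1 there without iAKI library 1 or 5 (0.64 and 0.56). The comparisons of each injury with its controls share those controls, and their values are set side by side in the plot of log2 fold changes.

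**Figure D3:**
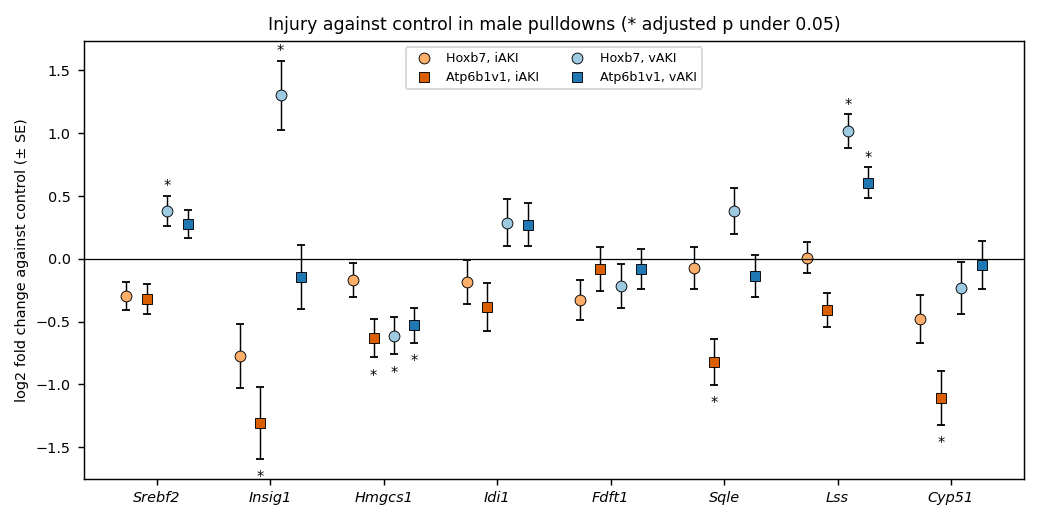
Log2 fold change of the 8 genes against the male controls of the same driver, after iAKI and vAKI, with error lines of 1 SE from edgeR's fit of the 22 male libraries and asterisks at an adjusted p under 0.05. Insig1 stands at 1.30 after vAKI and -0.77 after iAKI in Hoxb7Cre, and at -0.15 and -1.31 in Atp6v1b1Cre.

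The female libraries gave a different picture for vAKI in Hoxb7Cre. Insig1 held 128, 210.4, 137 and 167 CPM in the 4 female controls of 5.5 months and 71.3, 103.4, 91.0 and 175 CPM in the 4 vAKI libraries, which overlap. Lss held 41.4, 48.4, 42.9 and 45.2 CPM and 40.4, 40.2, 43.4 and 86.2 CPM. Female library 5, the last in each vAKI series, had the highest value of both genes, and it is the library that lay at the males' level on the genes that males changed. A fit of the 21 female pulldowns of 5.5 months gave a log2 fold change of -0.54 (SE 0.25, adjusted p = 0.611) for Insig1, 0.24 (SE 0.20, adjusted p = 0.812) for Lss and -0.19 (SE 0.14, adjusted p = 0.796) for Srebf2, with 0 members called, beside 0.109% of all genes.

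The vAKI response in Hoxb7Cre was lower in females than in males for 3 of the 8 members. The female log2 fold change minus the male one was -1.86 (SE 0.40, adjusted p = 0.0035) for Insig1, -0.79 (SE 0.24, adjusted p = 0.0263) for Lss and -0.58 (SE 0.17, adjusted p = 0.0191) for Srebf2, in a fit of the 43 pulldowns of 5.5 months. These 3 members were called beside 16.0% of all genes, and 7.48% of all genes were called lower. For Sqle the difference was 0.02 (SE 0.32) and for Hmgcs1 0.20 (SE 0.28), and these and the other 3 members were not called. Without female libraries 1 to 3, which leaves 1 female vAKI library, the differences were -1.18 for Insig1, -0.06 for Lss and -0.37 for Srebf2. The libraries left out were picked after the data were seen, as those least like the vAKI males. That likeness was taken on genes that include Insig1 and Lss. Smaller differences were thus built in, and this fit cannot test the difference between the sexes. Without libraries of over 100 CPM of adrenal cortex markers 1 was called, Insig1. With 1 library left out, the call of Lss was lost in 7 of 15 fits and that of Srebf2 in 3, and Insig1 kept its call in all 15.

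In the remaining 3 tests of the sexes, 0 members were called by edgeR's quasi-likelihood test and 0 by DESeq2. These were iAKI in Hoxb7Cre (0 at an unadjusted p under 0.05, beside 27.2% of all genes, and 10.5% of all genes called), iAKI in Atp6v1b1Cre (2 at an unadjusted p under 0.05, beside 3.19% of all genes, and 0.00% called) and vAKI in Atp6v1b1Cre (0 at an unadjusted p under 0.05, beside 8.29% of all genes, and 0.00% called).

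Insig1 fell in females after iAKI in both pulldowns, at a log2 fold change of -1.33 (SE 0.28, adjusted p = 0.0276) in Hoxb7Cre and -1.89 (SE 0.29, adjusted p = 0.0031) in Atp6v1b1Cre, where 3.14% and 2.66% of all genes were called. Its levels were 74.8, 67.8 and 47.6 CPM after iAKI in Hoxb7Cre, and in Atp6v1b1Cre 152, 105.5, 193 and 99.1 CPM in controls and 40.8, 30.7 and 40.9 CPM after iAKI. Every female iAKI library was under every female control of its driver and age. The share of all genes without overlap was not computed for these female groups. Hmgcs1 and Sqle, which fell in males after iAKI in Atp6v1b1Cre, were at a log2 fold change of 0.06 (SE 0.25, adjusted p = 0.962) and 0.30 (SE 0.26, adjusted p = 0.561) in females. The 2 female iAKI libraries of Atp6v1b1Cre with the highest adrenal cortex markers held 767 and 594 CPM of Hmgcs1, beside 360.0 CPM in the other one, and 101.1 and 124 CPM of Sqle, beside 77.2 CPM. After vAKI in Atp6v1b1Cre, Lss was higher in females too, at a log2 fold change of 0.84 (SE 0.22, adjusted p = 0.0133), and Fdft1 was lower, at -0.59 (SE 0.20, adjusted p = 0.0413), where 18.0% of all genes were called.

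**Figure D4:**
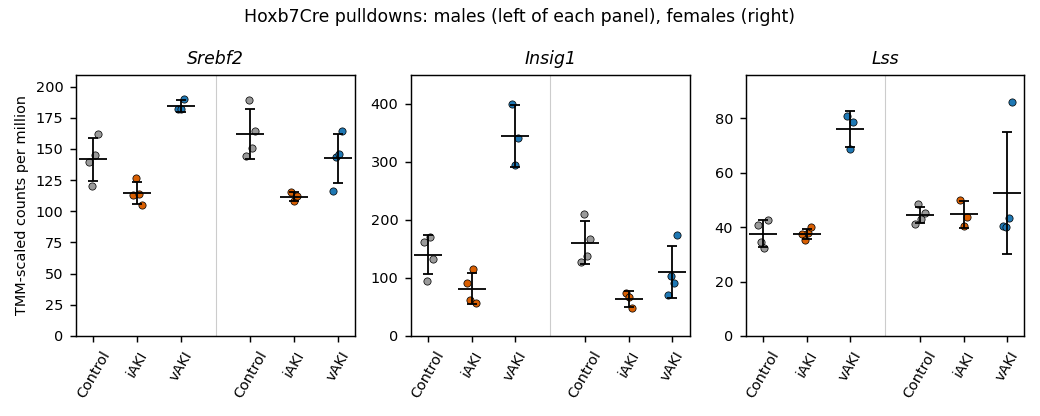
Levels of Srebf2, Insig1 and Lss in the Hoxb7Cre pulldowns of 5.5 months, by treatment and sex, in TMM-scaled CPM, 1 point per library, with bars at the mean ± SD. Insig1 in vAKI lies at 294 to 400 CPM in males and 71.3 to 175 CPM in females.

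Over the groups of 5.5 months, each gene had its own order of levels. Insig1 was highest in male vAKI Hoxb7Cre pulldowns, at 345 ± 53.0 CPM (SD, n = 3), and next in male Atp6v1b1Cre controls, at 173 ± 19.2 CPM (SD, n = 4), and lowest in female iAKI Atp6v1b1Cre pulldowns, at 37.5 ± 5.83 CPM (SD, n = 3). Lss was highest in the same male vAKI Hoxb7Cre group, at 76.1 ± 6.55 CPM (SD, n = 3), followed by female vAKI Atp6v1b1Cre, at 67.1 ± 6.40 CPM (SD, n = 3), whose libraries overlap with it, and lowest in male iAKI Atp6v1b1Cre, at 29.03 ± 1.95 CPM (SD, n = 3). Srebf2 had a narrower range than Insig1 and Lss, from 104.7 ± 8.26 CPM (SD, n = 8) in male total RNA to 185 ± 4.62 CPM (SD, n = 3) in male vAKI Hoxb7Cre. Hmgcs1 ranged from 334 ± 27.2 CPM (SD, n = 3) there to 676 ± 138 CPM (SD, n = 8) in male total RNA. Cyp51 was lowest in male iAKI Atp6v1b1Cre, at 42.6 ± 8.72 CPM (SD, n = 3), and in total RNA of males of 3 months all 3 libraries, at 518, 645 and 511 CPM, were above the 8 of 5.5 months, at 237, 312 and 439 CPM as lowest, median and highest. Those 3 libraries also have the highest library numbers of the series and all come from Atp6v1b1Cre mice. The 8 of 5.5 months have lower numbers and come from both genotypes. Age therefore cannot be told apart from library order here, and the difference was not tested. For this comparison no share of all genes without overlap is given.

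Over the 22 male pulldowns the members followed each other unevenly. Pearson's r of log2 CPM was 0.82 for Srebf2 and Lss, 0.76 for Srebf2 and Insig1, 0.75 for Insig1 and Lss and 0.71 for Idi1 and Lss, and it was -0.42 for Hmgcs1 and Lss and -0.25 for Hmgcs1 and Srebf2. The points share the 6 groups and differ in depth, and these are descriptions. Among 13904 genes of at least 1 CPM, those most like the mean z score of the 8 members were Ranbp9 (r = 0.89), Mettl7a2 (0.88), Tcp11l2 (0.87), Stk32c (0.85) and E130012A19Rik (0.85). Of the genes around the pathway, the highest were Tmem97 at r = 0.78 and rank 62, and Lpin1 at r = 0.73 and rank 171.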

How the data were processed

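RNA of 69 mouse kidney libraries was poly(A) selected and sequenced on an Illumina HiSeq. The authors deposited raw read counts per gene symbol, not normalized, made per the study's methods with CASAVA, Trimmomatic, STAR on mm10 and HTSeq at default settings, which counts no read that maps to several places. The annotation behind the symbols is not given in the sources used here. Groups, sexes, ages and library numbers come from the labels.

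From the counts, 21175 of 24411 genes with at least 2 counts over all libraries were tested in R 4.3.3 with edgeR 4.0.16 (TMM, quasi-likelihood test, Benjamini-Hochberg adjustment over all genes tested). A gene was called at an adjusted p under 0.05. Injury used 22 males (dispersion 0.0444), pulldown against total RNA 42 controls with sex as a covariate (0.0473) and sex by treatment 43 pulldowns (0.0606). A fit of the controls with 6 groups of RNA and sex was added after the data were seen, as were the fits without libraries of adrenal cortex markers or without female vAKI Hoxb7Cre libraries 1 to 3. DESeq2 1.42.0, other filters and scalings, sexes and libraries were alternatives. Log2 CPM use a prior count of 2. At depths of 12618062 to 30305464 counts per library, the spread between libraries outweighs counting error for these genes.

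The labels do not say that libraries of a group come from separate animals, and the study gives its numbers as mice. Each genotype, sex and age has as many control pulldowns as total RNA libraries. Thus 1 mouse may have given both, which the fit does not model. In library order within genotype and sex, each control pulldown over 100 CPM of adrenal cortex markers met a high total RNA library. The sums were 468 and 214 CPM, 207 and 264 CPM and 116 and 75.8 CPM in Hoxb7Cre, and 638 and 898 CPM in Atp6v1b1Cre. Pairs in that order were not fitted. None of the 181 pairs of libraries of the same group and sex agreed within sampling noise, and other pairs were not compared.

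The 8 genes and the lists were chosen with earlier results of these data known. The rule took all 8 genes in every comparison and up to 4 called genes of a list with the largest changes. Members without a value in a comparison were not called there. Some list genes that this rule takes are counted but not reported by name here. Sequences are RefSeq's on GRCm38.p6, and gene positions are GENCODE's on GRCm38. Scripts were tested on simulated data with known changes.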

Additional observations from a re-analysis of the deposited data

Results flagged for a closer look

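Differences between groups under the same contrast that passed their own test were as follows. The vAKI response of Insig1 differed between the drivers by -1.45 on the log2 scale in males, while it was -0.36 and not called with both sexes and 0.76 and not called in females. The vAKI response in Hoxb7Cre differed between females and males by -0.58 for Srebf2, -1.86 for Insig1 and -0.79 for Lss. The sex difference of Idi1 differed from that in total RNA by -1.86 in Hoxb7Cre and by -1.86 in Atp6v1b1Cre pulldowns.

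Of 72 groups of 4 to 10 libraries by gene, 4 held a library far from the others by Dixon's test, where chance gives about 1 in 20. Hmgcs1 was at 548 CPM in male iAKI Hoxb7Cre library 4, beside 414.5 to 421 CPM in the others. Idi1 was at 7.80 CPM in male control Hoxb7Cre library 4, beside 10.6 to 11.0 CPM. Cyp51 was at 439 CPM in male total RNA library 10, beside 237 to 329 CPM. Lss was at 86.2 CPM in female vAKI Hoxb7Cre library 5, beside 40.2 to 43.4 CPM.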

How the results depend on the processing

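Of 2320 recomputed values of the 8 genes, 2197 kept their side of the threshold, 73 lost a call and 43 gained one. In 7 more the sign changed with a call in either fit, here named reversals. Among the 2197, 172 values called in neither fit had the other sign. Of 306 recomputed counts of called members, 261 stayed within 1.5 times. Alternative scalings moved the median of all genes by at most 0.06 on the log2 scale. Calls after iAKI in Atp6v1b1Cre and in the comparison of the sexes rest on few libraries, and the limit is the spread between libraries. Where a call was lost, the cause was not tested unless the fit had fewer libraries by construction.

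All reversals came from females only: after vAKI in Hoxb7Cre Srebf2 was at -0.19 and Insig1 at -0.54, after iAKI in Atp6v1b1Cre Hmgcs1 was at 0.061 and Sqle at 0.30, the driver difference of Insig1 after vAKI was 0.76, and Idi1 against total RNA was at 0.27 in Hoxb7Cre and 0.26 in Atp6v1b1Cre.

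With a log2 fold change of at least 1 also required, members called were 2 after vAKI in Hoxb7Cre, 2 after iAKI and 0 after vAKI in Atp6v1b1Cre, 2 and 3 for vAKI against iAKI in Hoxb7Cre and Atp6v1b1Cre, 1 for each pulldown against total RNA, 0 between the pulldowns, 0 between the sexes in controls and 1 for the vAKI response of the sexes in Hoxb7Cre. DESeq2 called 2 after iAKI in Hoxb7Cre and 1 for the driver difference after iAKI, which 25 males also gave as 1. With both sexes, 2 were called after iAKI in Hoxb7Cre and 0 for the driver difference after vAKI. Females only gave 1 after iAKI and 0 after vAKI in Hoxb7Cre, 1 after iAKI in Atp6v1b1Cre, 0 and 2 for vAKI against iAKI, 0 for the driver difference after vAKI and 0 between the pulldowns. With only the compared groups in the fit, 1 was called after vAKI in Atp6v1b1Cre. Without libraries of adrenal cortex markers, 1 was called for the vAKI response of the sexes in Hoxb7Cre and 0 between the sexes in Atp6v1b1Cre controls. Without female vAKI Hoxb7Cre libraries 1 to 3, 1 female vAKI library was left, and only the differences are given for that fit.

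With single libraries left out, the counts ranged from 0 to 1 after iAKI and 3 to 5 after vAKI in Hoxb7Cre, 1 to 5 after iAKI and 1 to 2 after vAKI in Atp6v1b1Cre, 3 to 5 and 4 to 6 for vAKI against iAKI in Hoxb7Cre and Atp6v1b1Cre, 0 to 1 for the driver difference after iAKI and 0 to 1 after vAKI, and 1 to 3 for the vAKI response of the sexes in Hoxb7Cre. In the remaining comparisons of the sexes they stayed at 0. The fits of the sexes kept the dispersion trend of all libraries.

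Same-numbered libraries did not all deviate together, and the numbers were not taken as pairs. The lowest correlation of deviations was -0.10 for male vAKI and iAKI Hoxb7Cre and -0.40 for the control pulldowns of both drivers. Both sets join different mice, as treatment or genotype differs. They cannot show whether a pulldown and a total RNA library came from 1 mouse. With the replicate number as a block, 1 member was called after iAKI in Hoxb7Cre, 0 after iAKI and 0 after vAKI in Atp6v1b1Cre, 0 for the driver difference after vAKI and 0 for the vAKI response of the sexes in Hoxb7Cre.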
